A study of Homo sapiens with 4 samples.

Results

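The long terminal repeats (LTRs) of HERV-Fc1, HERV-Fc2 and HERV1 are described here across both histone marks of the series. They were chosen by name: HERV-Fc1_LTR1, HERV-Fc1_LTR2, HERV-Fc1_LTR3, HERV-Fc2_LTR and HERV1_LTRa to HERV1_LTRe, 9 of the 373 LTR subfamilies in the deposited table. The names were picked with the values of this table known, so every level and difference below is a description and carries no test. HCT116 cells, an established human colorectal carcinoma line, received 300 nM 5-aza-CdR (decitabine, a cytosine analogue that lowers DNA methylation) or PBS for 24 h. They were harvested at 5 days and profiled by native ChIP-seq, in which chromatin is not cross-linked, with antibodies to H3K9me2 (Abcam ab1220) or H3K9me3 (Active Motif AM39161). The groups were H3K9me2 with 5-aza-CdR, H3K9me2 with PBS, H3K9me3 with 5-aza-CdR and H3K9me3 with PBS, with 1 library in each, so no difference between treatments has a replicate check.

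An LTR flanks an integrated retrovirus on either side and carries its promoter and its polyadenylation signal, so a solitary LTR can still start transcription. HERV-Fc1 and HERV-Fc2 are gammaretrovirus-like families related to HERV-H, and the HERV1 LTRs belong to the same broad class I of endogenous retroviruses. In human cells LTRs are commonly silenced by methylation of their CpG dinucleotides and by methylation of lysine 9 of histone H3. The trimethylated form, H3K9me3, is placed at many LTRs by SETDB1, recruited through KRAB zinc finger proteins, and the dimethylated form, H3K9me2, largely by G9a and GLP. Inhibitors of DNA methylation are known to reactivate endogenous retroviruses in colorectal cancer cells.

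The deposited table gives no sequence or position for an LTR. As an example of sequence, the promoter window of ERVFC1, the RefSeq gene of the HERV-Fc1 provirus, is printed here from chrX:97841496-97841795 of GRCh38.p14, plus strand, with each CpG in capitals.

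ERVFC1: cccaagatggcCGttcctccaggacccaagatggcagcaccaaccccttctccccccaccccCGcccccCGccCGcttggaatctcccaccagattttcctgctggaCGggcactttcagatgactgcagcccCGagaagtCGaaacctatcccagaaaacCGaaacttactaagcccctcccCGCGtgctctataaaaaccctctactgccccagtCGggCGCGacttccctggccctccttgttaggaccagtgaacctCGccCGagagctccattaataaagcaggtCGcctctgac

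The window of 300 bases holds 16 CpGs, or 0.0533 per base, and 59.7% of its bases are C or G. The same count over 35116 promoter windows of that length had a median of 14, and 52.5% of windows held fewer CpGs than ERVFC1. Both strands were searched for TATAAA, the core of a TATA box, and AATAAA, the usual polyadenylation signal. TATAAA starts at base 193 and AATAAA at base 279 of the printed strand, with no overlap and no match on the other strand, and 11.5% and 17.4% of all windows hold them on either strand. Whether this window is an LTR, and which row of the table it would fall under, was not tested. Its CpGs per base were not compared with the deposited densities, whose denominator is not stated.

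The names were picked with the CpG densities of this table known, so the densities are a description too. All 9 lay among the 125 of 373 subfamilies with the highest CpG density, which start at 0.00901 and are called CpG-rich below. HERV-Fc1_LTR2 had the highest density of the 373, at 0.0671, HERV-Fc1_LTR1 the next, at 0.0497, and HERV-Fc1_LTR3 held rank 4, at 0.0473. HERV-Fc2_LTR held rank 6, at 0.0331. The HERV1 LTRs were spread further down, with 0.0182 for HERV1_LTRb (rank 21), 0.0159 for HERV1_LTRe (rank 30), 0.0130 for HERV1_LTRa (rank 59), 0.0113 for HERV1_LTRd (rank 78) and 0.0102 for HERV1_LTRc (rank 98). HERV1_LTRc thus lay below the upper quartile of density over all subfamilies (0.0103). The table gives no copy numbers, so the low copy number that these LTRs are known by was not checked, and the number of reads behind each value is unknown. Each value is a z-score computed by the authors, on a relative scale whose centring the sources used here do not state.

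These LTRs lay low in the table for both marks and in both treatments, and HERV1_LTRb, with a high H3K9me3 value in PBS, was the exception. In 5-aza-CdR-treated cells 9 of 9 had z-scores below the median of all subfamilies for either mark (0.312 for H3K9me2 and 0.468 for H3K9me3), as 49.9% of the 373 do by definition. Among the 10 lowest subfamilies, which hold 2.68% of the table, were 4 of the 9 for H3K9me2 and 2 of the 9 for H3K9me3. In PBS-treated cells 9 of 9 were below the median for H3K9me2 (-0.412) and 8 of 9 for H3K9me3 (-0.504), and 6 of the 9 were among the 10 lowest for each mark. Lying below the median was common among CpG-rich LTRs. Of the 116 other CpG-rich subfamilies, 88.8% did so in 5-aza-CdR for H3K9me2 and 84.5% for H3K9me3. In PBS it was 87.9% for H3K9me2 and 80.2% for H3K9me3. The 10 lowest held 4.31% of the 116 for H3K9me2 and 6.03% for H3K9me3 in 5-aza-CdR, and 2.59% for each mark in PBS.

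**Figure D1:**
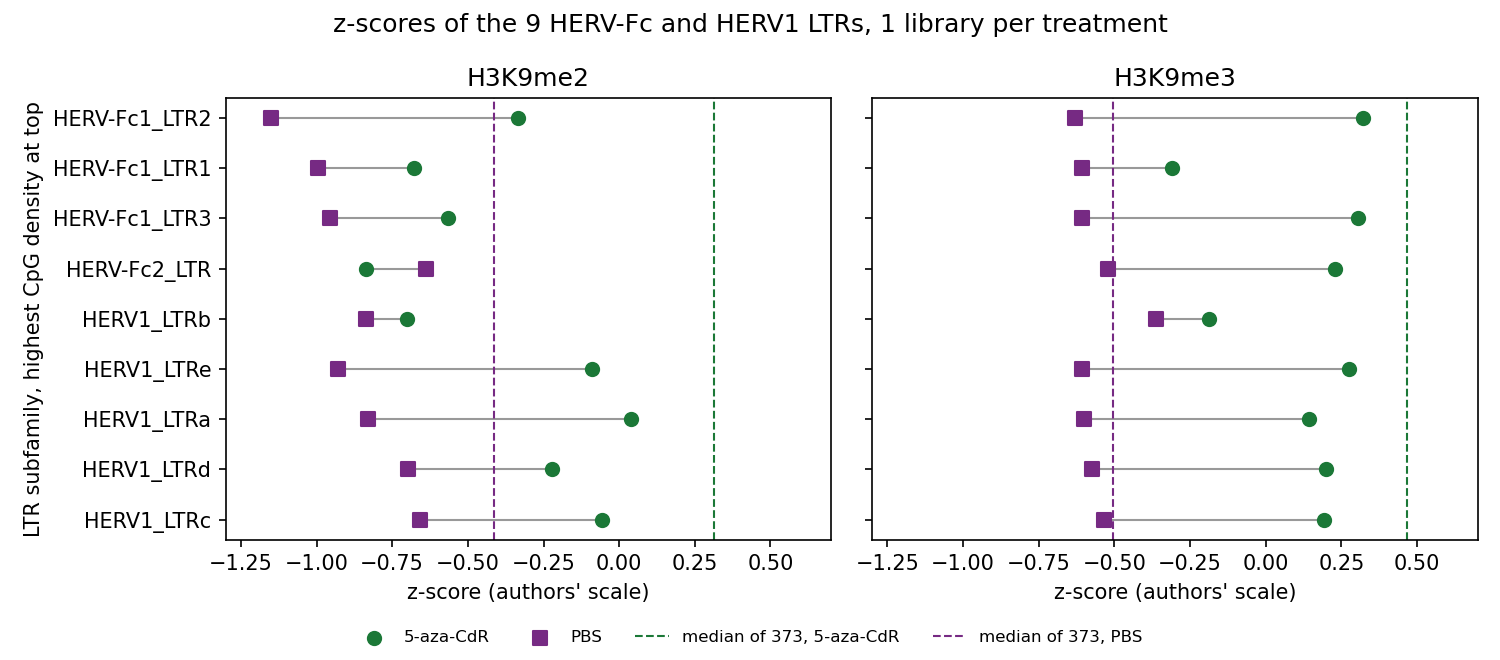
Authors' z-scores (horizontal axis, no unit) of the 9 LTRs, ordered from the highest CpG density at the top, for H3K9me2 (left) and H3K9me3 (right); circles are the 5-aza-CdR library, squares the PBS library and dashed lines the medians of all 373 subfamilies in each. The circle lies right of the square everywhere except for H3K9me2 at HERV-Fc2_LTR (-0.835 in 5-aza-CdR and -0.639 in PBS), and HERV1_LTRb is the only square right of the PBS median, at -0.362 for H3K9me3.

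The 3 HERV-Fc1 LTRs had low H3K9me2 levels in both treatments. HERV-Fc1_LTR2 had an H3K9me2 z-score of -0.333 in 5-aza-CdR and -1.15 in PBS, the lowest PBS value in the table. HERV-Fc1_LTR1 had -0.677 in 5-aza-CdR and -0.996 in PBS. HERV-Fc1_LTR3 had -0.566 in 5-aza-CdR and -0.956 in PBS. In 5-aza-CdR they stood at ranks 13, 3 and 5 from the lowest for HERV-Fc1_LTR2, HERV-Fc1_LTR1 and HERV-Fc1_LTR3, and in PBS they were the lowest 3 of all subfamilies. The range among the 3 was 0.344 in 5-aza-CdR and 0.196 in PBS, or 1.19 and 1.05 times the SD of all subfamilies in those libraries.

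For H3K9me3 the 3 were unlike in 5-aza-CdR and alike in PBS. HERV-Fc1_LTR2 had a z-score of 0.321 in 5-aza-CdR and -0.630 in PBS. HERV-Fc1_LTR1 had -0.311 in 5-aza-CdR, the lowest value of that library, and -0.607 in PBS. HERV-Fc1_LTR3 had 0.305 in 5-aza-CdR and -0.607 in PBS. In 5-aza-CdR the 3 lay within 0.632 of each other, with HERV-Fc1_LTR1 apart from the other two, and in PBS within 0.0234. The H3K9me3 values of all subfamilies were also more spread in 5-aza-CdR (SD 0.206) than in PBS (SD 0.0354). In units of those SDs the range of the 3 was 3.07 in 5-aza-CdR and 0.660 in PBS.

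HERV-Fc2_LTR was the only subfamily of the table whose H3K9me2 z-score was lower in 5-aza-CdR than in PBS. It had -0.835 in 5-aza-CdR, the lowest of that library, and -0.639 in PBS, at rank 44 from the lowest. Its H3K9me3 z-score was 0.230 in 5-aza-CdR and -0.523 in PBS, so the treatment difference was negative for H3K9me2 and positive for H3K9me3 on the deposited scale. The non-member next above it in CpG density, LTR12C (0.0384), had H3K9me2 values of -0.382 in 5-aza-CdR and -0.706 in PBS. The non-member next below it, MER48 (0.0301), had -0.0318 in 5-aza-CdR and -0.592 in PBS. The H3K9me2 value of HERV-Fc2_LTR thus lay below those of both CpG neighbours in 5-aza-CdR and between them in PBS. For H3K9me3 LTR12C had 0.0594 in 5-aza-CdR and -0.554 in PBS. MER48 had 0.150 in 5-aza-CdR and -0.538 in PBS, so HERV-Fc2_LTR lay above both neighbours in each treatment. The H3K9me3 difference was 0.613 for LTR12C and 0.689 for MER48, against 0.752 for HERV-Fc2_LTR.

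Among the HERV1 LTRs, HERV1_LTRa and HERV1_LTRe had the largest H3K9me2 differences between treatments. Of all subfamilies they ranked 39 and 56 from the highest, where the median difference was 0.702. HERV1_LTRa had H3K9me2 z-scores of 0.0381 in 5-aza-CdR and -0.829 in PBS, a difference of 0.868. HERV1_LTRe had -0.0913 in 5-aza-CdR and -0.928 in PBS, a difference of 0.837. HERV1_LTRd had -0.223 in 5-aza-CdR and -0.696 in PBS, and HERV1_LTRc had -0.0579 in 5-aza-CdR and -0.657 in PBS. In PBS all 5 HERV1 LTRs lay between -0.928 and -0.657, below the lower quartile of all subfamilies (-0.532). The other CpG-rich LTRs also had a median below that quartile, at -0.560, and a lower quartile of -0.635.

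The H3K9me3 values of these 4 HERV1 LTRs spanned 0.132 in 5-aza-CdR and 0.0723 in PBS, which is 0.643 and 2.04 times the SD of all subfamilies in those libraries. They were 0.142 in 5-aza-CdR and -0.600 in PBS for HERV1_LTRa, and 0.192 in 5-aza-CdR and -0.534 in PBS for HERV1_LTRc. HERV1_LTRd had 0.200 in 5-aza-CdR and -0.573 in PBS, and HERV1_LTRe had 0.274 in 5-aza-CdR and -0.606 in PBS. All 4 were below the lower quartile of all subfamilies in each library (0.340 in 5-aza-CdR and -0.524 in PBS). The medians of the other CpG-rich LTRs were below these quartiles too, at 0.318 in 5-aza-CdR and -0.529 in PBS.

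HERV1_LTRb did not follow its relatives. Its H3K9me3 z-score was -0.186 in 5-aza-CdR, at rank 3 from the lowest, and -0.362 in PBS, at rank 3 from the highest. The other 8 LTRs described here lay between -0.630 and -0.523 for H3K9me3 in PBS. The subfamilies ranked above it in that library, LTR5 and LTR11, carry round deposited values of -0.3, unlike the value of HERV1_LTRb. Its H3K9me2 z-score was -0.701 in 5-aza-CdR, at rank 2 from the lowest, and -0.837 in PBS, at rank 7 from the lowest, so the high PBS level was seen for H3K9me3 and not for H3K9me2. The non-members next to it in CpG density, LTR2B (0.0185) and MER52D (0.0176), had H3K9me3 values of 0.123 and 0.242 in 5-aza-CdR and -0.511 and -0.537 in PBS.

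The difference 5-aza-CdR minus PBS was then set against all subfamilies. With 1 library per group a limit of size took the place of a test: differences over 2 robust SDs away from the median of the 373 were counted as beyond it, a robust SD being a scaled median absolute deviation. For H3K9me2 the median was 0.702 and the limits were 0.452 and 0.952. HERV-Fc2_LTR (-0.196), HERV1_LTRb (0.137), HERV-Fc1_LTR1 (0.319) and HERV-Fc1_LTR3 (0.391) lay below the lower limit, 4 of the 9, against 8.04% of all subfamilies. HERV1_LTRd (0.473) lay just inside it. This limit takes no account of CpG density, against which the differences are set further below. None of the 9 lay above the upper limit, against 2.95% of all subfamilies, and HERV1_LTRa, HERV1_LTRe and HERV-Fc1_LTR2 (0.819) came nearest. The H3K9me2 difference was above 0 for 8 of the 9 and for 99.7% of all subfamilies.

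For H3K9me3 the median difference was 0.973 and the limits were 0.687 and 1.26. HERV1_LTRb (0.175) and HERV-Fc1_LTR1 (0.295) lay below the lower limit, 2 of the 9, against 7.24% of all subfamilies, and 0 of the 9 lay above the upper limit, against 1.88%. The other 7 differences ran from 0.726 for HERV1_LTRc to 0.951 for HERV-Fc1_LTR2. The H3K9me3 difference was above 0 for 9 of the 9 and for 100% of all subfamilies. All 9 lay below the median difference, as 49.9% of subfamilies do, while for H3K9me2 it was 6 of 9. Of the other CpG-rich LTRs, 81.9% lay below the median difference for H3K9me3 and 73.3% for H3K9me2. HERV1_LTRb and HERV-Fc1_LTR1 were below the limit for both marks, whereas HERV-Fc1_LTR3 and HERV-Fc2_LTR were below it for H3K9me2 and had H3K9me3 differences of 0.913 and 0.752, inside the limits.

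**Figure D2:**
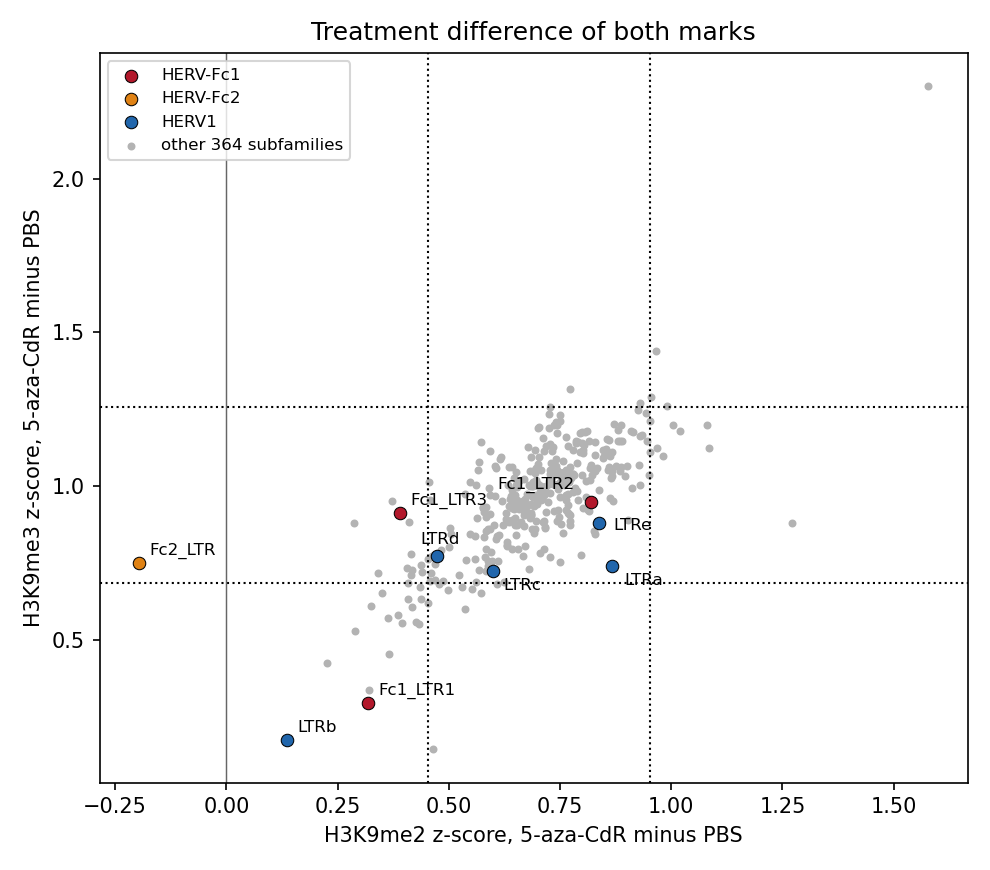
Difference in z-score, 5-aza-CdR minus PBS, for H3K9me2 (horizontal) and H3K9me3 (vertical); each point is an LTR subfamily, coloured points are the 9 HERV-Fc and HERV1 LTRs, dotted lines are the limits of 2 robust SDs around each median and the solid line marks 0. HERV-Fc2_LTR is the only point left of 0, at -0.196, and HERV1_LTRb and HERV-Fc1_LTR1 lie below the lower limits of both marks.

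How far a difference stood from the median depended on the scale, because the libraries differ in spread. With every library set to mean 0 and SD 1, HERV-Fc2_LTR and HERV1_LTRb were still below the H3K9me2 limit (11 subfamilies, 2.95%), HERV-Fc1_LTR1 and HERV-Fc1_LTR3 were not, and HERV-Fc1_LTR2, HERV1_LTRa and HERV1_LTRe were above it (30 subfamilies, 8.04%). On the same scale HERV1_LTRb alone of the 9 was below the H3K9me3 limit (17 subfamilies, 4.56%), and HERV-Fc1_LTR2, HERV-Fc1_LTR3 and HERV1_LTRe were above it (20 subfamilies, 5.36%). The small H3K9me3 difference of HERV1_LTRb was beyond the limit on each of the 4 scales tried, from -12.3 to -5.02 robust SDs from the median. The H3K9me2 difference of HERV-Fc2_LTR was below the median on each, from -7.19 to -0.854 robust SDs, and inside the limit on percentile ranks alone.

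The z-score of H3K9me3 was above that of H3K9me2 at 9 of the 9 LTRs in 5-aza-CdR, as at 94.6% of all subfamilies, and at 9 of the 9 in PBS, as at 27.6% of all. Among the other CpG-rich LTRs it was 95.7% in 5-aza-CdR and 57.8% in PBS. H3K9me3 was also above H3K9me2 in both treatments at each LTR12 subfamily and each LTR7, LTR19 and LTR21 subfamily. H3K9me3 minus H3K9me2 in 5-aza-CdR had a median of 0.423 over the 9 and 0.144 over all subfamilies, and in PBS 0.322 over the 9 and -0.0900 over all. The LTR12 list had a median of 0.421 in 5-aza-CdR, close to that of the 9, and 0.137 in PBS, and the other CpG-rich LTRs had 0.264 in 5-aza-CdR and 0.0356 in PBS. HERV-Fc2_LTR had the largest value of the 373 in 5-aza-CdR, at 1.06, and 0.116 in PBS. HERV-Fc1_LTR2 had 0.654 in 5-aza-CdR and 0.522 in PBS, the largest of the PBS libraries, and HERV1_LTRb had 0.514 in 5-aza-CdR and 0.476 in PBS. HERV1_LTRa had the smallest value of the 9 in 5-aza-CdR, at 0.104, under the median of all subfamilies, and 0.229 in PBS. These are differences between scores of separate libraries with unequal spread and not ratios of the marks.

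Because both marks fall with CpG density over the whole table, each LTR was set against the least squares line of z-score on CpG density through the 373 subfamilies. Per 0.01 of density the line fell by 0.304 for H3K9me2 in 5-aza-CdR and fell by 0.179 for H3K9me2 in PBS. It fell by 0.170 for H3K9me3 in 5-aza-CdR and fell by 0.0272 for H3K9me3 in PBS. The HERV1 LTRs lie lower in density than the HERV-Fc LTRs, from rank 21 for HERV1_LTRb to rank 98 for HERV1_LTRc. In the 5-aza-CdR libraries HERV1_LTRb lay below the line, at -3.83 robust SDs for H3K9me2 and -3.64 for H3K9me3, where 3.75% of subfamilies are more than 2 below it in either library. In PBS its distance was -1.93 for H3K9me2, and for H3K9me3 it lay above the line at 7.92, where 4.02% are more than 2 above. HERV1_LTRe and HERV1_LTRa were near the line for H3K9me2 in 5-aza-CdR, at -0.877 and -0.660, and more than 2 below it in PBS, at -2.91 and -2.57, against 3.75% of subfamilies. For H3K9me3 HERV1_LTRa, HERV1_LTRd and HERV1_LTRe were within 2 of the line in 5-aza-CdR, at -1.84, -1.62 and -0.473, and further below it in PBS, at -3.95, -2.89 and -3.84, where 4.56% lie more than 2 below. HERV1_LTRd was at -2.36 for H3K9me2 in 5-aza-CdR and -1.79 in PBS, and HERV1_LTRc was within 2 in all 4 libraries. With the line fitted to CpG-rich LTRs only, HERV1_LTRa for H3K9me2 in PBS (-1.81) and HERV1_LTRd for H3K9me2 in 5-aza-CdR (-1.44) were no longer beyond 2.

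HERV-Fc2_LTR lay on both sides of the line. Its distance for H3K9me2 was -2.09 robust SDs in 5-aza-CdR and 1.56 in PBS, and for H3K9me3 it was 1.38 in 5-aza-CdR and 2.27 in PBS. The signs held under the other fits, but the sizes did not: the H3K9me2 distance in 5-aza-CdR was -1.09 on a line fitted without the 9 LTRs and -1.67 with a quadratic, and the H3K9me3 distance in PBS was 1.69 on a line fitted to CpG-rich LTRs only. Other distances grew beyond 2. The H3K9me2 distance in PBS was 2.27 without the 9 LTRs and 2.26 with a quadratic. The H3K9me3 distance in 5-aza-CdR was 2.72 without the 9 LTRs and 2.20 with a quadratic. At its density or above there were 4 members and 2 other subfamilies only, LTR12C and LTR12E, against 367 subfamilies below it. The line at these densities rests on few points. For HERV-Fc1_LTR2 the H3K9me2 distance in PBS ran from -2.83 to 3.90 robust SDs over the shapes and fits tried. In 5-aza-CdR its distance was 6.31 for H3K9me2 and 6.40 for H3K9me3 on the line, but -1.59 and -0.98 with a quadratic. The distances of HERV-Fc1_LTR2 and HERV-Fc1_LTR1 changed sign in all 4 libraries, so no direction is given for them. Those of HERV-Fc1_LTR3 changed sign too, except that for H3K9me3 in 5-aza-CdR, above the line under each fit, from 1.83 to 5.87. The treatment differences were set against lines of their own, with no other fit tried. For H3K9me2 the distance was -5.42 at HERV-Fc2_LTR and -4.07 at HERV1_LTRb. HERV-Fc1_LTR1 (1.22) and HERV-Fc1_LTR3 (1.60), also below the limit, were not below this line. For H3K9me3 it was 1.06 at HERV-Fc2_LTR, -5.10 at HERV1_LTRb, -0.664 at HERV-Fc1_LTR1 and 3.89 at HERV-Fc1_LTR3.

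**Figure D3:**
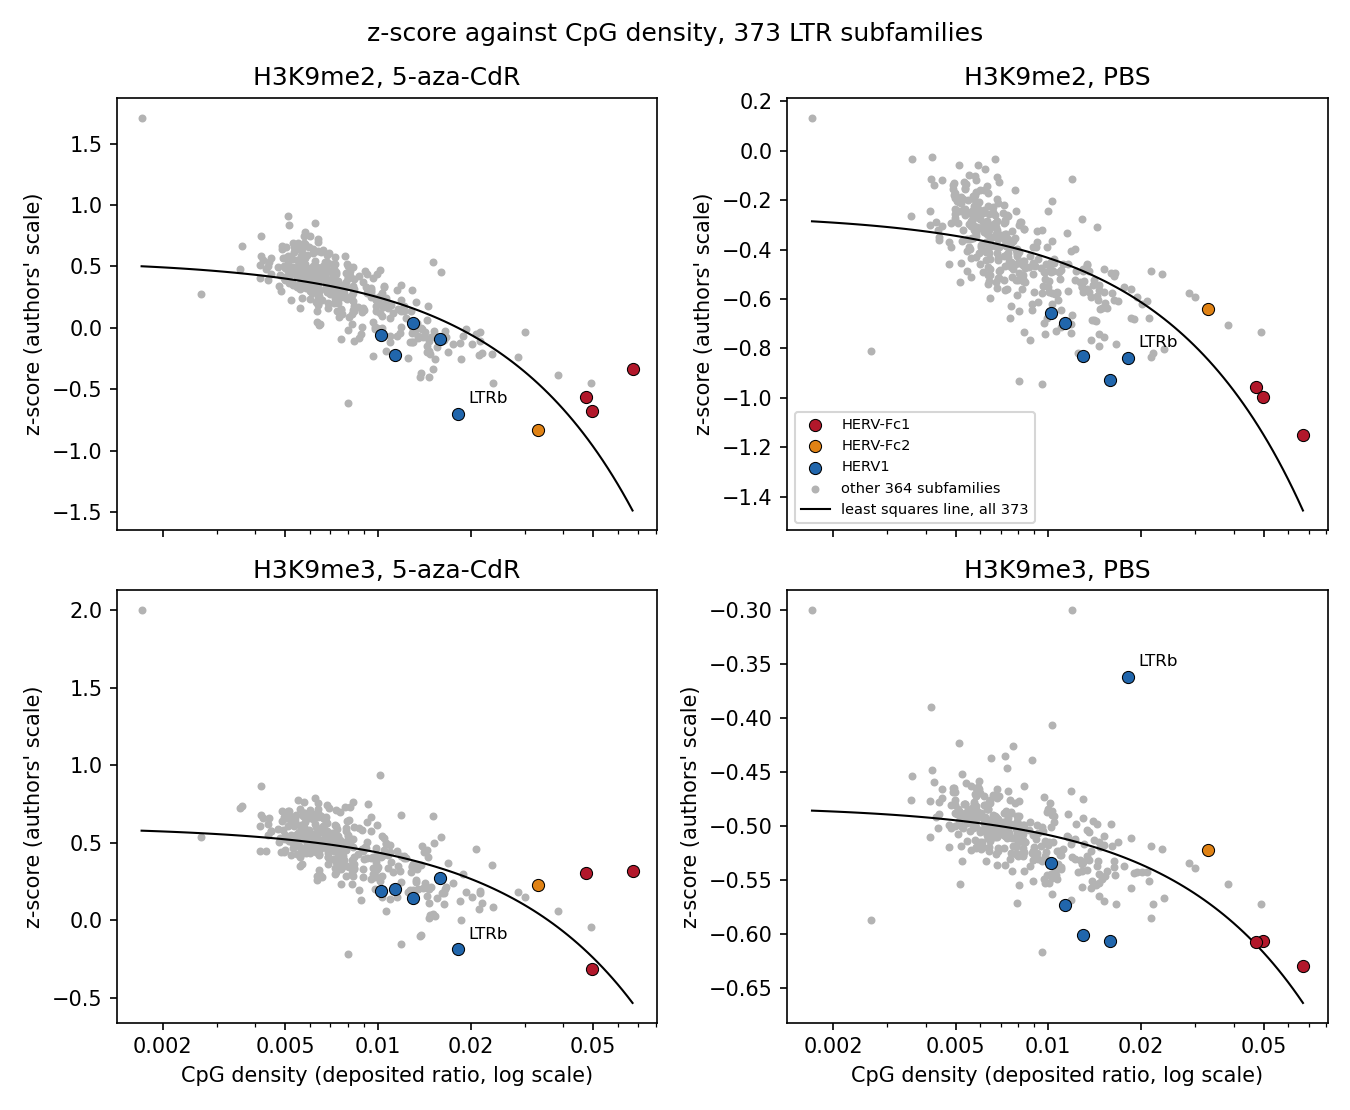
Authors' z-score (vertical, no unit, own range in each panel) against deposited CpG density (horizontal, log scale) for each library; grey points are the other 364 subfamilies, coloured points the 9 LTRs, and the black curve is the straight least squares line, bent by the log axis. HERV1_LTRb lies above the line for H3K9me3 in PBS (-0.362) and below it in the other 3 panels, and few points lie at the densities of the HERV-Fc LTRs.

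Within the 9 LTRs z-scores tended to be lower at higher CpG density, except for H3K9me3 in 5-aza-CdR. The order was loose. For H3K9me2 in 5-aza-CdR the densest, HERV-Fc1_LTR2 (-0.333), lay above HERV-Fc2_LTR (-0.835) and HERV1_LTRb (-0.701). The Spearman correlation of z-score with density over the 9 was -0.62 for H3K9me2 in 5-aza-CdR, -0.73 for H3K9me2 in PBS, 0.28 for H3K9me3 in 5-aza-CdR and -0.58 for H3K9me3 in PBS. The Pearson values were -0.48, -0.75, 0.020 and -0.40 in the same order. Over all 373 subfamilies the Spearman values were -0.77, -0.74, -0.67 and -0.61. The points share their libraries and are related by descent, and the 9 were chosen by name with these values known, so the figures describe the table only.

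The remaining CpG-rich LTRs give a scale for these values. The 9 LTRs had median differences of 0.473 for H3K9me2 and 0.752 for H3K9me3, against 0.584 and 0.846 for the 116 other CpG-rich subfamilies. Below the limits were 21.6% of the 116 for H3K9me2 and 19.8% for H3K9me3, so small differences are common among CpG-rich LTRs. The LTRs of HERV-H and of other HERV-F-related families (LTR7, LTR19 and LTR21 names, 9 subfamilies) had medians of 0.436 for H3K9me2, from 0.227 at LTR21B to 0.814 at LTR19A, with 5 of 9 below the limit. Their H3K9me3 median was 0.664, with 7 of 9 below the limit. The ERV9 LTRs (LTR12 names, 7 subfamilies) had medians of 0.385 for H3K9me2, from 0.289 at LTR12E to 0.614 at LTR12F, and 0.719 for H3K9me3, from 0.531 at LTR12E to 1.01 at LTR12_, with 5 and 3 of 7 below the limits. Each subfamily of both lists also had z-scores below the median of all subfamilies for both marks in both treatments.

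The H3K9me2 difference was more spread over the 9 LTRs than over these lists. Its SD over subfamilies was 0.356 for the 9, 0.159 for the LTR7, LTR19 and LTR21 list, 0.123 for LTR12 and 0.175 for the other CpG-rich LTRs. For H3K9me3 in PBS it was 0.0827 for the 9, 0.0153 for the LTR7, LTR19 and LTR21 list, 0.0194 for LTR12 and 0.0349 for the other CpG-rich LTRs. The value of the 9 rests on HERV1_LTRb: without it the SD of the other 8 was 0.0384, while that of the H3K9me2 difference was 0.356 without it too. The lowest H3K9me2 difference of the 9 was that of HERV-Fc2_LTR (-0.196), and the SD of the other 8 without HERV-Fc2_LTR was not computed. The H3K9me2 difference had an SD of 0.270 over the 3 HERV-Fc1 LTRs and 0.299 over the 5 HERV1 LTRs. No test was made of these spreads.

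Likeness was measured as the Euclidean distance over the 4 z-scores, each library set to mean 0 and SD 1. The subfamily outside the 9 nearest to HERV1_LTRa was LTR13A, at a distance of 0.699, and LTR13A was also nearest to HERV1_LTRe (0.888) and HERV-Fc1_LTR2 (2.35). HERV1_LTRc was nearest to LTR5_Hs (0.321), the LTR of the youngest human HERV-K proviruses, and HERV1_LTRd to LTR3A (0.683). HERV-Fc1_LTR3 was nearest to LTR13_ (1.81) and HERV-Fc2_LTR to LTR12C (2.01). HERV-Fc1_LTR1 was nearest to LTR25 (1.59), a subfamily of much lower CpG density (0.00802) with H3K9me2 values of -0.612 in 5-aza-CdR and -0.932 in PBS. HERV1_LTRb had no near neighbour, since the closest, LTR4, was 4.32 away. Among the 9, HERV1_LTRa and HERV1_LTRe were nearest to each other (0.957), as were HERV-Fc1_LTR2 and HERV-Fc1_LTR3 (1.47).

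MER57E3, which shares the bottom of the PBS libraries with HERV-Fc1, differed from it in density and in the H3K9me2 difference. The HERV-Fc1 LTRs had densities of 0.0473 to 0.0671, against 0.00952 for MER57E3, at rank 117. MER57E3 is thus also CpG-rich as defined above, near the lower end of that group. Their H3K9me2 differences were 0.319 to 0.819, against 1.27 for MER57E3, whose H3K9me2 z-score was 0.326 in 5-aza-CdR and -0.945 in PBS. For H3K9me3 MER57E3 had 0.266 in 5-aza-CdR and -0.617 in PBS, a difference of 0.882 that lay within the range of the HERV-Fc1 LTRs (0.295 to 0.951). The lowest PBS z-scores were thus held by LTRs of very different CpG density, with small and large H3K9me2 differences.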

How the data were processed

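Per the file headers, the deposited values are a z-score for each LTR subfamily and library, a score the authors made before they deposited the table. The CpG density is a ratio deposited by the authors without its denominator. Bowtie2 and hg19 are named in the submitters' processing notes. How multi-mapping reads were treated, any input library and the population behind the z-score are not stated in the sources used here. Depth is unknown, so no counting interval was computed. Differences are 5-aza-CdR minus PBS on the deposited z-score scale. The limit was 2 robust SDs (1.4826 times the median absolute deviation) around the median of the 373 subfamilies. No p-value was computed, since each group had 1 library. Alternatives covered the scale, the limit and the fit of the CpG line. Members, lists and rules were chosen with earlier results of these data known. Named subfamilies were the 9 members, the nearest non-member of each, the CpG neighbours of HERV-Fc2_LTR and HERV1_LTRb, MER57E3, and the lowest and highest of each comparison list. Promoter sequence came from RefSeq (GRCh38.p14). Python 3.11.15, numpy 2.4.6, pandas 2.3.3 and scipy 1.17.1 were used.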

Additional observations from a re-analysis of the deposited data

Results flagged for a closer look

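HERV-Fc2_LTR stood out because 5-aza-CdR minus PBS was -0.196 for H3K9me2 and 0.752 for H3K9me3, of opposite sign on the deposited scale, whose centring is unknown. Relative to the median of all subfamilies both differences lay below it on each of the 4 scales tried, from -7.19 to -0.854 robust SDs for H3K9me2 and from -1.55 to -0.633 for H3K9me3. Against CpG density they parted, at -5.42 robust SDs from the line of the difference for H3K9me2 and 1.06 for H3K9me3. These lines rest on few points at its density. Each mark had 1 library per treatment, and the difference between the marks was not tested.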

How the results depend on the processing

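No paired analysis was possible because each group held 1 library. Counts of members are followed by the share of all subfamilies beyond the same limit. With a limit of 3 robust SDs, 3 were below for H3K9me2 (2.14%; 4 in the report) and 2 for H3K9me3 (1.88%; 2 in the report), with 0 above (1.07% and 0.536%). With 2 ordinary SDs, 3 (2.68%) and 2 (2.95%) were below and 0 above (1.07% and 0.536%). With SD 1 in each library, 2 were below (2.95%) and 3 above (8.04%) for H3K9me2, and 1 below (4.56%) and 3 above (5.36%) for H3K9me3. With median 0 and robust SD 1, a scale chosen after seeing the data, 2 were below (4.02%) and 3 above (6.17%) for H3K9me2, and 1 below (5.9%) and 4 above (6.17%) for H3K9me3. On percentile ranks 0 were below for H3K9me2 (3.49%) and 1 for H3K9me3 (6.43%), with 0 above (7.77% and 7.24%). Subfamilies at the end of a ranking can move little on ranks. In robust SDs from the median, some differences below it on the deposited scale lay above it on others. For H3K9me2 these were HERV-Fc1_LTR1 (0.13 on ranks) and HERV-Fc1_LTR3 (0.096 with SD 1, 0.16 on ranks). For H3K9me3, with SD 1 and with robust SD 1, they were HERV-Fc1_LTR2 (4.25 and 5.33), HERV-Fc1_LTR3 (3.18 and 4.06) and HERV1_LTRe (2.90 and 3.75), and with robust SD 1 HERV1_LTRa (2.46). The PBS library of H3K9me3 has the smallest spread (SD 0.0354), so rescaling enlarges its values. A further 11 changes of sign stayed inside the limit. Distances from the CpG line that changed sign were those of HERV-Fc1_LTR2, for H3K9me2 in 5-aza-CdR (-1.59 with a quadratic), H3K9me2 in PBS (-1.01 on log2 density, -2.83 with a quadratic, -0.44 fitted to CpG-rich LTRs only) and H3K9me3 in 5-aza-CdR (-0.98 with a quadratic). Another 21 such changes stayed inside 2 robust SDs, and 101 of the 144 recomputed distances kept their sign and side of the limit. A further 6 fell inside it: the 3 of HERV-Fc2_LTR, 1 of HERV1_LTRa and 1 of HERV1_LTRd given in the report, and HERV-Fc1_LTR3 for H3K9me3 in 5-aza-CdR (1.83 fitted to CpG-rich LTRs only). The remaining 11 kept their sign and moved from inside the limit to beyond it. Without read counts or copy numbers, the precision of a value from an LTR with few copies is unknown.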
